A study of Aspergillus niger with 9 samples.

Results

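The genes described here are the 2 genes of Aspergillus niger whose closest SwissProt protein is XlnR, the transcriptional activator of xylan and xylose use, and 4 genes encoding enzymes that carry D-xylose and L-arabinose into central metabolism. The homologues of xlnR and the L-arabinitol dehydrogenase gene ladA were chosen by identifier. The remaining genes were chosen because their closest SwissProt protein is an A. niger D-xylose reductase, D-xylulose reductase or D-xylulose kinase. This gave 6 genes of the 11187 in the deposited tables, each of which passed edgeR's filter on low counts. Poly(A) RNA of vegetative mycelium from shaken liquid cultures was sequenced in 9 libraries, with 3 biological replicates of each of 3 strains: the reference strain MA234.1, ΔaslA (aslA deleted) and ΔaslB (aslB deleted). Each deletion strain is compared here with MA234.1, and the deletion strains with each other. The growth protocol names cultures of 16 h on 25 mM glucose, in a medium enriched with casamino acids (0.2%) and yeast extract (0.5%), and of 4 h with 25 mM xylose as the sugar. The same protocol stands for all 9 libraries. It does not say whether one culture followed the other or, if they were separate, which one a library was taken from, so whether the strains differed in culture could not be checked. The labels give no genotype beyond the strain name for MA234.1 and do not say how many independent transformants each deletion strain represents. No identifier is paired with the names aslA and aslB in the sources used here, so the deletions were not checked in the counts.

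In aspergilli, XlnR is a zinc cluster protein that activates genes for xylan-degrading enzymes and for xylose catabolism when xylose is present, a related activator, AraR, does so for arabinose, and the repressor CreA lowers such genes on preferred sugars such as glucose. D-xylose is reduced to xylitol by D-xylose reductase, xylitol is oxidised to D-xylulose by D-xylulose reductase (xylitol dehydrogenase), and D-xylulose is phosphorylated by D-xylulose kinase before it enters the pentose phosphate pathway. L-arabinose is reduced to L-arabinitol, which L-arabinitol dehydrogenase oxidises to L-xylulose; L-xylulose reductase turns this into xylitol, where the routes meet.

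Libraries held 11321882 to 19110786 counts. Levels are given in CPM, the count scaled to library size after TMM normalization, and 3 counts in a library equalled 0.157 to 0.265 CPM. The libraries labelled ΔaslB stand apart from each other. Across genes, the log2 CPM of ΔaslB replicate 2 correlated with MA234.1 libraries at r = 0.970 to 0.978 and with ΔaslA libraries at 0.777 to 0.798. ΔaslB replicate 1 correlated with ΔaslA libraries at r = 0.922 to 0.941 and with those of MA234.1 at 0.798 to 0.803. ΔaslB replicate 3 correlated with ΔaslA libraries at r = 0.967 to 0.984 and with those of MA234.1 at 0.772 to 0.777. Results that involve ΔaslB are therefore given for each library, and with and without the library in question. In the label check, the vegetative mycelium list (chitin synthases, actins, tubulins, glyceraldehyde-3-phosphate dehydrogenase) summed to 13787 to 14101 CPM over its 42 genes in MA234.1, 13343 to 16647 in ΔaslA and 11939 to 15477 in ΔaslB. A list of 22 conidiation and sexual development genes summed to 252 to 266, 187 to 195 and 163 to 255 CPM. Within it 2 genes were at 0 counts throughout MA234.1, 2 throughout ΔaslA and 1 throughout ΔaslB. Both genes closest to dewA, a spore wall hydrophobin, were at or near 0 throughout. Others of the list were expressed. Mean levels in MA234.1 were 57.6 CPM for steA, 44.1 for a wA-like gene (ATCC64974_8540), 39.0 for brlA (ATCC64974_72370) and 22.8 for wetA. The abaA-like gene had a mean of 1.43 CPM in MA234.1 and 19.0 in ΔaslA. In ΔaslA against MA234.1, 6 of the 15 conidiation and sexual development genes tested fell and 1 rose, and of 41 hyphal genes tested 12 rose and 5 fell, while 24.9% of all genes tested were called lower and 23.5% higher. Without ΔaslB replicate 2, 6 genes fell and 2 rose in the conidiation list, and 23 rose and 6 fell in the hyphal list, beside 30.8% lower and 30.1% higher over all genes. The part of either list in the results below was not tested.

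All 6 genes had lower levels in every ΔaslA library than in any MA234.1 library, and 5 of them fell by edgeR's quasi-likelihood test. The fall was largest, 21.6-fold and 18.9-fold, for ladA and for ATCC64974_91960, the second xlnR homologue. It was 4.74-fold for the closer xlnR homologue, 4.04-fold for the D-xylulose reductase gene xdhA and 2.05-fold for the D-xylulose kinase gene xkiA. The D-xylose reductase gene xyl1 was not called, at a 1.74-fold lower level. Over all 9568 genes tested, 48.5% were called in this comparison and 24.9% were called lower. Ranges of CPM that did not overlap and lay lower in ΔaslA were found for 37.9% of all genes tested. The median log2 fold change of the 6 genes was -2.13, beside 0.00 for all genes tested. In bulk RNA, fewer cells with a transcript and less transcript per cell cannot be told apart.

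**Figure D1:**
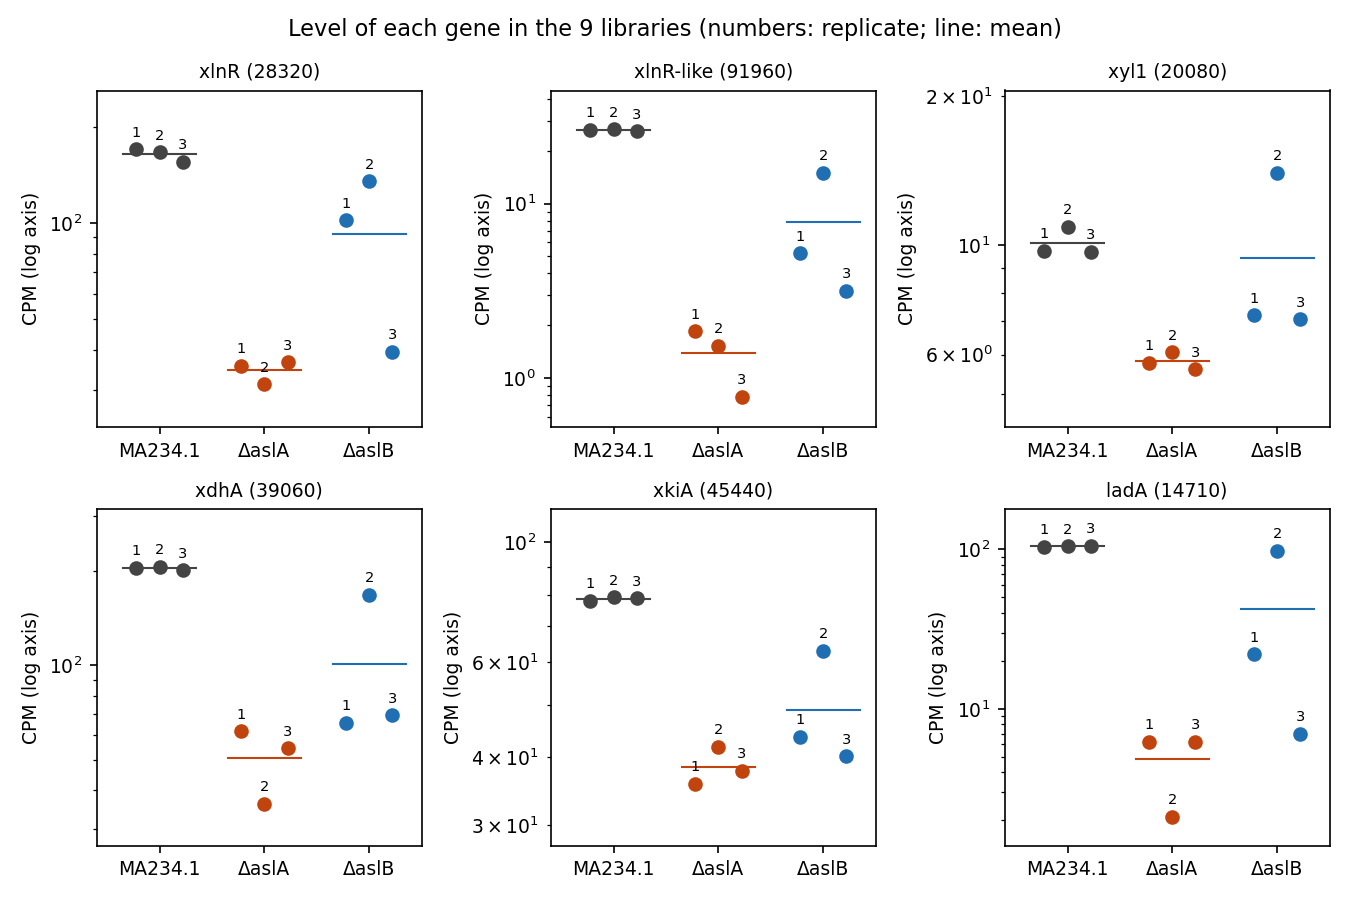
Level of each of the 6 genes in every library, in CPM after TMM scaling on log axes, by strain; points are libraries numbered by replicate and lines are means of 3. All ΔaslA points lie under all MA234.1 points, while ΔaslB replicate 2 is the highest of the ΔaslB libraries for every gene.

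The gene closest to the A. niger xlnR entry, ATCC64974_28320, lies on contig 4 from 551351 to 554235 on the minus strand, and its deposited protein families are a zinc cluster domain and a fungal transcription factor domain. It stood at 170.1, 166 and 155 CPM in MA234.1 replicates 1 to 3 and at 35.7, 31.2 and 36.7 CPM in ΔaslA. Each strain kept within a narrow range, and the ranges did not overlap. The log2 fold change of ΔaslA over MA234.1 was -2.24 (SE 0.387, edgeR adjusted p = 0.00841, n = 3 per strain).

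The second homologue, ATCC64974_91960 (contig 16, 1610687 to 1612596, minus strand), is closest to the xlnR entry of Emericella nidulans. Its listed families hold the fungal transcription factor domain without the zinc cluster, which is listed for 214 genes of the table. Whether this gene acts as an activator of xylose use is not recorded in the files. It was at 26.5, 26.7 and 26.1 CPM in MA234.1, and at 1.85, 1.53 and 0.777 CPM in ΔaslA, where these levels rest on 25, 29 and 10 counts. The MA234.1 libraries were nearly equal, with an SD of 0.309 CPM, and every ΔaslA library was far under them. The log2 fold change was -4.24 (SE 0.621, edgeR adjusted p = 0.00841).

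The unequal log2 fold changes of the homologues can also be read as count ratios within each library, given as a description. An exact permutation test of ΔaslA against MA234.1 gave p = 0.1. It could not reach the threshold, as this is the smallest p possible with 3 against 3 libraries. In MA234.1 there were 6.42, 6.21 and 5.95 counts of ATCC64974_28320 for each count of ATCC64974_91960, and in ΔaslA 19.3, 20.4 and 47.2, the last of which rests on 10 counts of ATCC64974_91960. In ΔaslB the ratio was 19.7, 8.97 and 12.5. All 6 ratios of the deletion strains, ΔaslB replicate 2 included, were above those of MA234.1.

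The first step of xylose use is represented by xyl1 (ATCC64974_20080, contig 3, 2735617 to 2736699, plus strand), which encodes an NAD(P)H-dependent D-xylose reductase of the aldo-keto reductase family. It was the gene of the set with the fewest counts in MA234.1, at 9.72, 10.9 and 9.67 CPM. In ΔaslA it was measured at 5.77, 6.06 and 5.60 CPM. The ranges were separate but close. The log2 fold change was -0.80 (SE 0.318, edgeR adjusted p = 0.0650). It was called lower by 4 of 17 alternative fits: by DESeq2 (adjusted p = 0.0354), by edgeR on the 6 libraries compared (0.00414), and by edgeR without ΔaslB replicate 2 (0.00802) or without ΔaslB replicate 3 (0.0489). The same fits called 25.2%, 34.8%, 30.8% and 26.9% of all genes tested lower, and limma-voom, which did not call xyl1, 25.8%. Over the alternatives its adjusted p ran from 0.00414 to 0.169.

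The next enzyme, D-xylulose reductase, is encoded by xdhA (ATCC64974_39060, contig 6, 15904 to 17059, plus strand), a zinc-binding alcohol dehydrogenase on which the xylose and the arabinose route converge. It was at 205, 207 and 202 CPM in MA234.1 and at 61.6, 36.1 and 54.3 CPM in ΔaslA. ΔaslA replicate 2 was the lowest, and the ranges did not overlap. The log2 fold change was -2.01 (SE 0.385, edgeR adjusted p = 0.00841).

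D-xylulose kinase, which phosphorylates the sugar for entry to the pentose phosphate pathway, is encoded by xkiA (ATCC64974_45440, contig 7, 709010 to 710790, plus strand). Its level was 78.1, 79.2 and 78.9 CPM in MA234.1 and 35.7, 41.8 and 37.8 CPM in ΔaslA. Of the genes called, this one changed least, with a log2 fold change of -1.03 (SE 0.207, edgeR adjusted p = 0.00853). For xkiA, unlike xdhA, ΔaslA replicate 2 was the highest of its strain.

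On the arabinose side, ladA (ATCC64974_14710, contig 3, 1048803 to 1050031, minus strand) was at 104, 104 and 105 CPM in MA234.1 and at 6.21, 2.11 and 6.22 CPM in ΔaslA. These low levels correspond to 84, 40 and 80 counts. The log2 fold change was -4.44 (SE 0.916, edgeR adjusted p = 0.00867). Replicate 2 of ΔaslA was again the lowest, and no ΔaslA library came near the range of MA234.1.

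Each of the 5 called genes was called in 17 of 17 alternatives, with log2 fold changes from -2.29 to -2.17 for ATCC64974_28320, -4.48 to -3.91 for ATCC64974_91960, -2.17 to -1.82 for xdhA, -1.09 to -0.97 for xkiA and -4.65 to -4.06 for ladA. The number of genes called over the whole table moved more: 4638 in the main fit, and 3054 and 3008 without MA234.1 replicate 2 or replicate 3. Replicates are labelled biological. The p-values of the main fit rest on the spread within all 3 strains, the discordant ΔaslB libraries included. On the 6 libraries compared alone, the SE was 0.104 for ATCC64974_28320 and 0.351 for ladA, against 0.387 and 0.916 in the main fit.

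**Figure D2:**
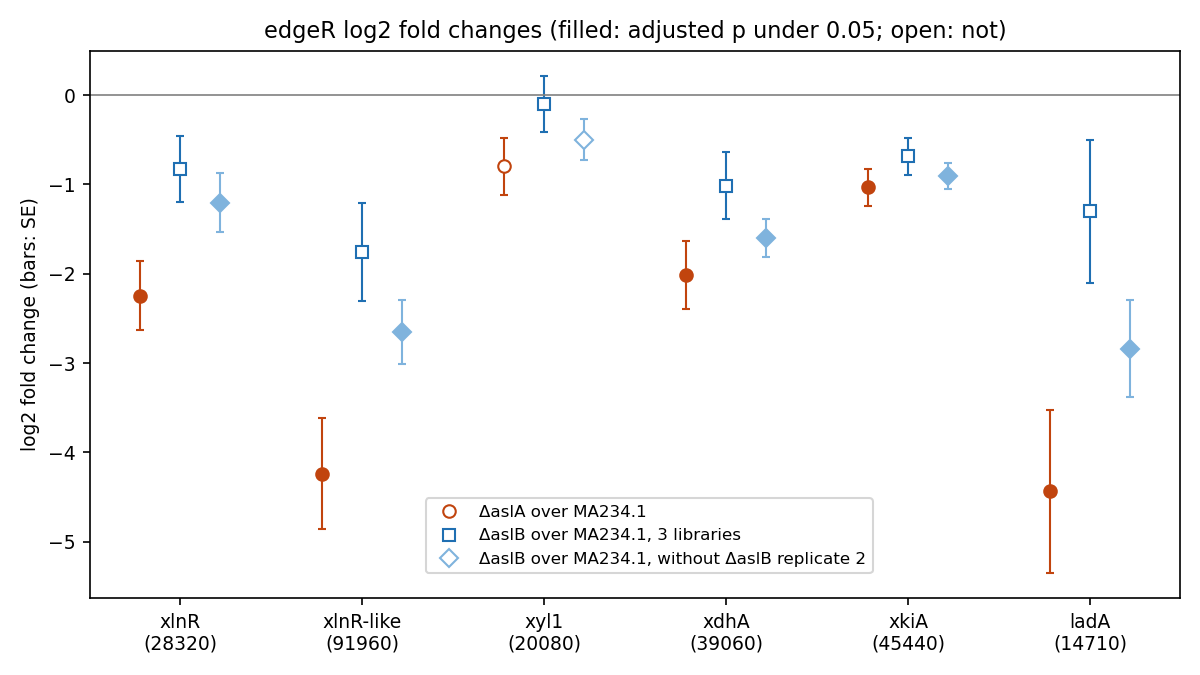
log2 fold changes with SE bars from edgeR for ΔaslA over MA234.1 and for ΔaslB over MA234.1, the latter with 3 ΔaslB libraries and without ΔaslB replicate 2; filled symbols have an adjusted p under 0.05. ladA and ATCC64974_91960 have the most negative values in ΔaslA, at -4.44 and -4.24, and xyl1 the value nearest 0, at -0.80.

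The log2 fold changes of the enzyme genes were unequal too, and count ratios within libraries show the same difference in other units. They are given as a description. The exact permutation test of ΔaslA against MA234.1 gave p = 0.1 for each ratio, the smallest value possible with 3 against 3 libraries. In MA234.1 there were 0.506, 0.503 and 0.522 counts of ladA per count of xdhA, and in ΔaslA 0.101, 0.0583 and 0.114. There were 20.3 ± 1.13 counts of xdhA per count of xyl1 in MA234.1 and 8.78 ± 2.49 in ΔaslA (SD, n = 3). For xdhA against xkiA the ratio was 2.60 ± 0.0376 in MA234.1 and 1.34 ± 0.438 in ΔaslA. None of these ratios overlapped between MA234.1 and ΔaslA.

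Levels were compared between genes as CPM per kb of annotated gene span, introns included. In MA234.1, xdhA was highest on this scale at 177 ± 2.40, followed by ladA at 85.0 ± 0.622, ATCC64974_28320 at 56.8 ± 2.64, xkiA at 44.2 ± 0.318, ATCC64974_91960 at 13.8 ± 0.162 and xyl1 at 9.32 ± 0.637 CPM per kb (SD, n = 3). No neighbours in this order had overlapping ranges. In ΔaslA, xdhA remained highest at 43.9 ± 11.3 CPM per kb, and xkiA came next at 21.6 ± 1.75. ATCC64974_28320 followed at 12.0 ± 1.01 CPM per kb, then xyl1 at 5.36 ± 0.216. The gene ladA went from the place after xdhA to 3.94 ± 1.93 CPM per kb, which differed from the level of xyl1 by less than its own SD. The level of ATCC64974_91960 was the lowest of the set at 0.725 ± 0.288 CPM per kb.

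**Figure D3:**
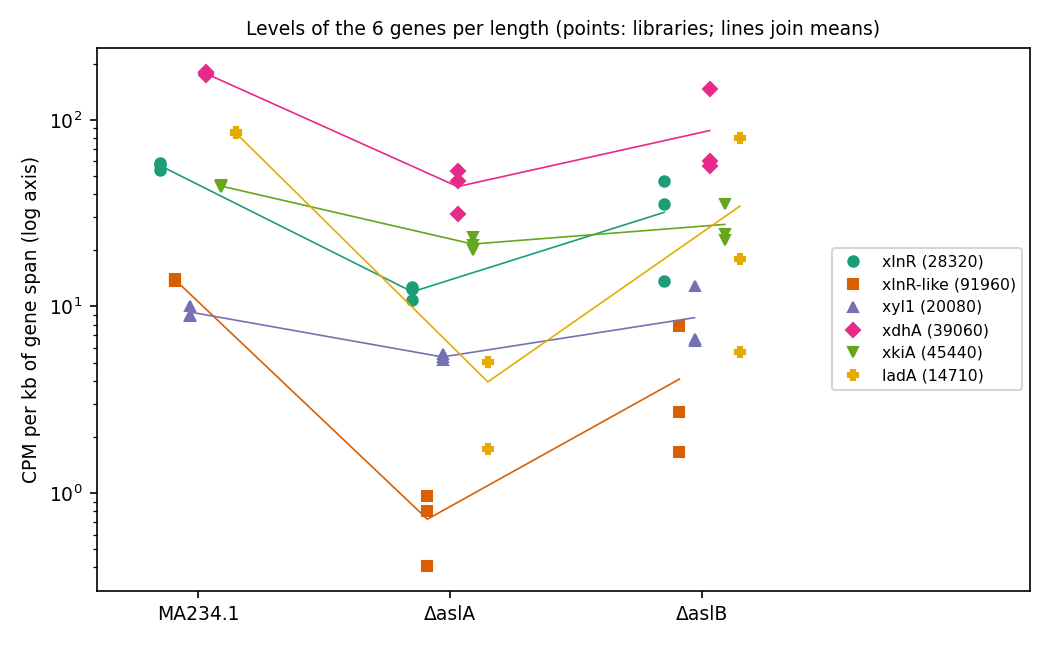
CPM per kb of gene span of the 6 genes in the 9 libraries on a log axis, with lines joining the strain means. The gene ladA crosses ATCC64974_28320, xkiA and xyl1 between MA234.1 (85.0 CPM per kb) and ΔaslA (3.94 CPM per kb).

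In ΔaslB against MA234.1 the levels of all 6 genes were lower on average (xyl1 not so when scaled by total counts alone), but edgeR called none of them and 0% of all genes (0 of 9568, with 2926 at an unadjusted p under 0.05). For the 6 genes, 3 had an unadjusted p under 0.05. DESeq2 called 1796 genes, 4.89% of those tested being lower, and 2 of the 6, both lower: ATCC64974_91960 (adjusted p = 0.0164) and xkiA (0.0220). limma-voom called 0 genes, 0%, with 3305 at an unadjusted p under 0.05.

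The individual ΔaslB libraries differed widely. Replicates 1 to 3 of ΔaslB had 102, 135 and 39.6 CPM of ATCC64974_28320, each under all of MA234.1. For ATCC64974_91960 the levels were 5.19, 15.04 and 3.16 CPM, also all under MA234.1. In xdhA the libraries stood at 65.5, 169 and 69.4 CPM. All of these genes were highest in replicate 2.

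For xkiA the ΔaslB libraries were at 43.7, 63.1 and 40.2 CPM, and for ladA at 22.1, 98.1 and 6.98 CPM. The spread of ladA was such that replicate 2 lay just under the 104 to 105 CPM of MA234.1, while replicate 3 lay just above the 6.22 CPM of the highest ΔaslA library. Only xyl1, at 7.21, 14.0 and 7.07 CPM, had a ΔaslB library above MA234.1. Thus 5 of the 6 genes had ΔaslB ranges under and apart from those of MA234.1, as had 22.8% of all genes tested.

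With all 3 libraries, the edgeR log2 fold changes of ΔaslB over MA234.1 were -0.83 for ATCC64974_28320 (SE 0.372, adjusted p = 0.169), -1.76 for ATCC64974_91960 (SE 0.549, adjusted p = 0.0874) and -0.10 for xyl1 (SE 0.315, adjusted p = 0.839). For the dehydrogenases and the kinase they were -1.02 for xdhA (SE 0.375, adjusted p = 0.121), -0.68 for xkiA (SE 0.206, adjusted p = 0.0815) and -1.30 for ladA (SE 0.800, edgeR adjusted p = 0.278). Without ΔaslB replicate 2, edgeR called 5 of the 6 genes lower, all but xyl1, while 52.7% of all genes were called and 26.2% called lower. Their log2 fold changes were then -1.21 for ATCC64974_28320, -2.65 for ATCC64974_91960, -1.60 for xdhA, -0.90 for xkiA and -2.84 for ladA, and xyl1 was at -0.50 (adjusted p = 0.0968). Without ΔaslB replicate 3, edgeR called 24 genes, 0% being lower, and none of the 6. The value of xyl1 changed sign with the setting: it was 0.0070 when libraries were scaled by total counts alone, 0.065 without ΔaslB replicate 1 and 0.074 without replicate 3.

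Each ΔaslB library was also placed between the strain means of log2 CPM, with MA234.1 at 0 and ΔaslA at 1. In replicate 1 the 6 genes ran from 0.304 for ATCC64974_28320 to 0.820 for xkiA, and 4 of them lay past the midpoint. All genes called lower in ΔaslA had a median position of 0.765 there (quartiles 0.493 and 0.982), and 74.3% of them lay past the midpoint. The xlnR homologues were at 0.304 and 0.553, and ladA at 0.493, in the lower part of that spread, whereas xdhA at 0.802 and xkiA at 0.820 were above the median.

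In replicate 2 no gene of the set passed the midpoint, and 5.66% of all genes called lower did. Of the set, ladA was at 0.0200, ATCC64974_28320 at 0.124, xdhA at 0.137, ATCC64974_91960 at 0.193 and xkiA at 0.308. The median of all genes called lower was 0.125. The exception in the set was xyl1 at -0.600, on the far side of MA234.1 from ΔaslA. In replicate 3 all 6 lay past the midpoint, from 0.645 for xyl1 to 0.934 for xkiA, beside a median of 0.916. The scale takes its ends from the MA234.1 and ΔaslA libraries, so these positions are a description without a test.

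**Figure D4:**
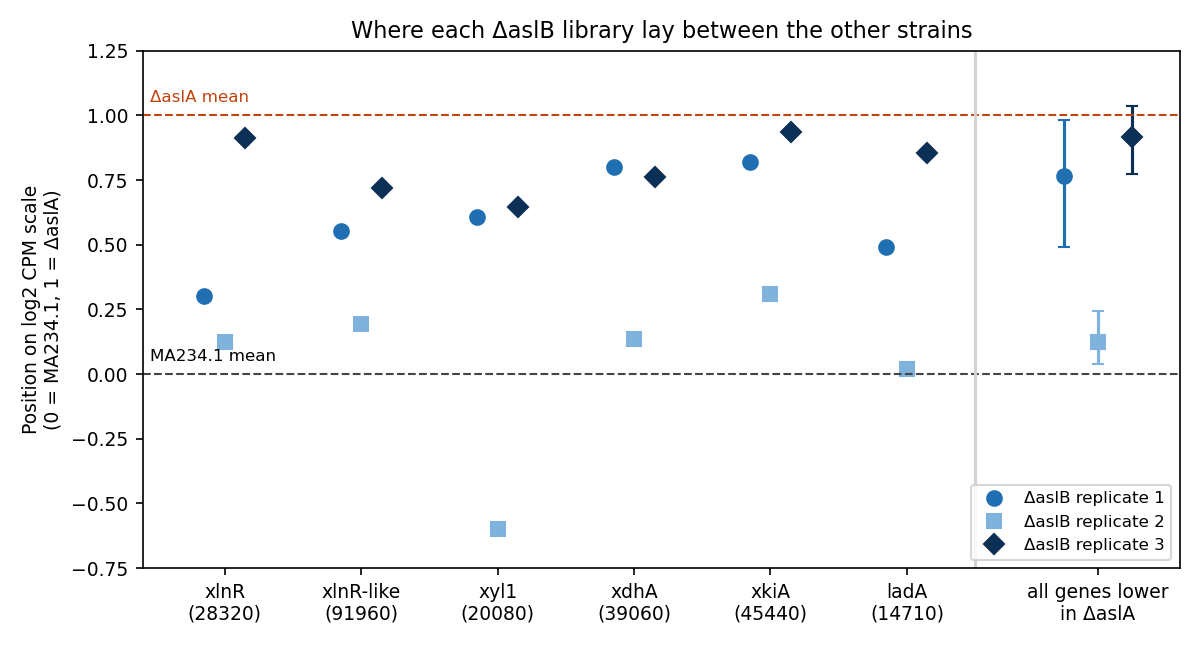
Position of each ΔaslB library on the log2 CPM scale, with the MA234.1 mean at 0 and the ΔaslA mean at 1, for the 6 genes and, at the right, for all genes called lower in ΔaslA (median, bars are quartiles). Replicate 2 lies between 0.0200 and 0.308 except for xyl1 at -0.600, replicate 3 between 0.645 and 0.934, and replicate 1 is spread from 0.304 to 0.820.

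The direct comparison of ΔaslA with ΔaslB rests on ΔaslB libraries that were unlike each other. A lack of calls in it therefore cannot show whether the deletions differ in effect. The edgeR test called none of the 6 genes, 4 of which had an unadjusted p under 0.05, and 0% of all genes (0 of 9568, with 1633 at an unadjusted p under 0.05). DESeq2 called 553 genes, with 5.31% of those tested lower, and 3 of the set: both xlnR homologues and ladA, each lower in ΔaslA. The edgeR log2 fold changes of ΔaslA over ΔaslB were -1.42 for ATCC64974_28320 (SE 0.377), -2.49 for ATCC64974_91960 (SE 0.585) and -3.14 for ladA (SE 0.867), with adjusted p of 0.167, 0.157 and 0.170.

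For xyl1, xdhA and xkiA the difference between the deletion strains was -0.70 (SE 0.317), -0.998 (SE 0.375) and -0.35 (SE 0.206) on the log2 scale, with edgeR adjusted p of 0.303, 0.231 and 0.418. The ΔaslA libraries lay under all ΔaslB libraries for every gene but xkiA, where they overlapped; over all genes tested, 8.98% had such a separation with ΔaslA lower. Without ΔaslB replicate 3, edgeR called 1245 genes, with 10.7% of those tested lower, and in the set both xlnR homologues and ladA. Without ΔaslB replicate 2 it called 52 genes, with 0.248% lower, and none of the 6. In that fit the log2 fold changes shrank to -1.58 for ATCC64974_91960 (SE 0.358, edgeR adjusted p = 0.0804), -1.61 for ladA (SE 0.513, adjusted p = 0.166) and -0.41 for xdhA (SE 0.204, adjusted p = 0.379). Without ΔaslB replicate 3 they were -2.85, -3.64 and -1.20.

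The authors' deposited table, which gives 1 FPKM value per strain, had the 6 genes in the same order of change. In the authors' deposited table MA234.1 had 114 FPKM of ladA, ΔaslA 4.98 and ΔaslB 45.8, and ATCC64974_91960 at 19.5, 0.809 and 5.58 FPKM. The authors' deposited table called ATCC64974_28320, ATCC64974_91960, xdhA and ladA in ΔaslA against MA234.1. In the authors' deposited table xkiA had a q-value of 0.00436 with a log2 ratio of -1.04 in that comparison and was not called, while xdhA was called at -2.003. Between the deletion strains, the authors' deposited table called ladA only. ATCC64974_28320, ATCC64974_91960 and xdhA were not called in that comparison, although the authors' deposited table gave them q-values of 0.000295, 0.000556 and 0.00558. For ΔaslB against MA234.1 the authors' deposited table called none of the 6. Its q-values there were 0.0382 for ATCC64974_28320, 0.000801 for ATCC64974_91960, 0.00836 for xdhA and 0.00230 for ladA. For xyl1 in ΔaslB against MA234.1 the authors' deposited table had a log2 ratio of 0.05, of opposite sign to the edgeR value above.

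The rest of the pathway was read from lists of genes by their SwissProt match. Of 21 further genes matched to enzymes of pentose, pentitol or galacturonate metabolism, 19 were tested in ΔaslA against MA234.1, 13 fell and 3 rose, with a median log2 fold change of -1.85. Over all genes tested, 24.9% were called lower and 23.5% higher, with a median of 0.00. DESeq2 called 8 of the list lower and 3 higher and gave no adjusted p for 7, beside 25.2% lower and 25.5% higher over all genes. The L-xylulose reductase gene lxrA (ATCC64974_104800), whose product turns the ladA product into the xdhA substrate, fell from 169 ± 23.3 to 29.5 ± 16.5 CPM (edgeR log2 fold change -2.51 with SE 0.616, adjusted p = 0.0121). The gene closest to lxr3 of Hypocrea jecorina, also an L-xylulose reductase (ATCC64974_45780), rose from 257 ± 6.71 to 1046 ± 23.6 CPM (edgeR log2 fold change 2.03 with SE 0.458, adjusted p = 0.00988).

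Further along the galacturonate route, gaaC (ATCC64974_56460), an aldolase, fell from 744 ± 62.0 to 12.1 ± 1.19 CPM (edgeR log2 fold change -5.95 with SE 1.16, adjusted p = 0.00841). The most abundant gene of the list, closest to the D-arabinitol dehydrogenase ARD1 of Uromyces fabae (ATCC64974_20310), was at 2002 ± 103 CPM in MA234.1 and 1429 ± 78.2 in ΔaslA, with an edgeR adjusted p of 0.0950. Chosen after their values were seen, the other genes matched to L-arabinitol dehydrogenases were all lower. ATCC64974_3080 was at 30.0 ± 3.12 CPM in MA234.1 and 0.136 ± 0.0270 in ΔaslA (edgeR log2 fold change -7.72 with SE 1.55, adjusted p = 0.00856). Its ΔaslA levels were all under the 0.157 to 0.265 CPM that equal 3 counts, so the size of this fold is imprecise. ATCC64974_72830 fell by 5.74 and ATCC64974_74900 fell by 1.60 on the log2 scale (edgeR adjusted p = 0.00933 and 0.0391). The fold of ATCC64974_72830 is imprecise too, with a mean of 0.163 CPM in ΔaslA. As with ladA itself, ATCC64974_3080 varied among the ΔaslB libraries, with 1.01, 18.9 and 0.332 CPM, and was highest in replicate 2. Other tested genes matched to D-xylulose reductase A, also chosen after their values were seen, went both ways. ATCC64974_44070 rose from 43.2 ± 4.03 to 132 ± 16.8 CPM (edgeR log2 fold change 1.61 with SE 0.470, adjusted p = 0.0215). ATCC64974_29270 and ATCC64974_99210 fell, to means of 0.405 and 0.158 CPM (edgeR log2 fold changes -5.04 and -4.52, adjusted p = 0.0103 and 0.0296). ATCC64974_42710 was not called (edgeR log2 fold change -0.10, adjusted p = 0.888).

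The pentose phosphate pathway takes up the xkiA product. Of its 14 genes tested, 6 rose and 2 fell in ΔaslA, with a median log2 fold change of 0.36, beside 23.5% higher and 24.9% lower over all genes. The gene closest to the yeast 6-phosphogluconate dehydrogenase GND2 (ATCC64974_88550) rose from 276 ± 8.68 to 1726 ± 8.79 CPM (edgeR log2 fold change 2.65 with SE 0.550, adjusted p = 0.00876). A transaldolase gene (ATCC64974_45960) rose from 337 ± 6.15 to 1106 ± 129 CPM and a transketolase gene (ATCC64974_101290) from 431 ± 13.9 to 900.0 ± 120.5 CPM, with log2 fold changes of 1.72 and 1.06 and edgeR adjusted p of 0.0115 and 0.0449. A phosphoketolase gene (ATCC64974_24890) rose from 167 ± 1.91 to 504 ± 38.5 CPM, at an edgeR adjusted p of 0.0499. In ΔaslB the GND2-like gene was at 1657, 321 and 1766 CPM, so that replicate 2 was again the library nearest to MA234.1.

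Of the xylan, arabinan and glucan degrading enzymes matched to A. niger entries, 20 of 22 genes were tested, 10 fell and 1 rose in ΔaslA, with a median log2 fold change of -1.66, beside 24.9% lower and 23.5% higher over all genes. Without ΔaslB replicate 2, 11 fell and 2 rose (30.8% and 30.1% of all genes), and without ΔaslB replicate 3, 10 fell and 2 rose (26.9% and 25.5%). The arabinofuranosidase gene abfC (ATCC64974_104980), whose product releases arabinose side chains, was at 237, 228 and 242 CPM in MA234.1 and 5.18, 4.06 and 4.66 CPM in ΔaslA (edgeR log2 fold change -5.67 with SE 1.03, adjusted p = 0.00841). The alpha-xylosidase gene axlA (ATCC64974_10330) fell from 174 ± 8.12 to 25.7 ± 2.38 CPM (edgeR log2 fold change -2.76 with SE 0.399, adjusted p = 0.00841). In ΔaslB, the arabinofuranosidase gene abfA (ATCC64974_23190) was at 43.1, 446 and 4.24 CPM and the xylosidase gene xlnD (ATCC64974_15350) at 3.03, 29.3 and 2.99 CPM, with replicate 2 highest for both. Chosen after their values were seen, the endoxylanase genes xlnB (ATCC64974_22790) and xlnC (ATCC64974_83150) were not called, with log2 fold changes of 1.44 (SE 0.571, edgeR adjusted p = 0.0644) and -1.10 (SE 0.565, edgeR adjusted p = 0.133).

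Among 14 tested genes matched to regulators of sugar use, 4 fell and 2 rose in ΔaslA, with a median log2 fold change of -0.53. The share lower is near the 24.9% of all genes called lower, and 23.5% were called higher. The counts lower were 7 without ΔaslB replicate 2 and 7 without ΔaslB replicate 3, where 30.8% and 26.9% of all genes were called lower. The repressor gene creA (ATCC64974_62010) was at 298, 317 and 307 CPM in MA234.1 and at 109.5, 177 and 108 CPM in ΔaslA, below in every library (edgeR log2 fold change -1.22 with SE 0.435, adjusted p = 0.0442). Of the other proteins of carbon catabolite repression, creC (ATCC64974_89120) fell by 0.93 on the log2 scale (edgeR adjusted p = 0.00992) and a creD-like gene (ATCC64974_89170) rose by 0.70 (edgeR adjusted p = 0.0337). The deubiquitinase gene creB (ATCC64974_16580) was not called, with a log2 fold change of -0.84 (SE 0.357, edgeR adjusted p = 0.0796).

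The arabinose activator gene araR (ATCC64974_85550) was at 81.5, 92.3 and 96.1 CPM in MA234.1, while ΔaslA libraries had 52.3, 44.6 and 57.1 CPM and ΔaslB libraries 162, 97.2 and 61.0 CPM. The ΔaslA libraries lay under those of MA234.1, while 2 of the ΔaslB libraries lay above them. Its log2 fold change in ΔaslA was -0.81 (SE 0.320, edgeR adjusted p = 0.0629), which missed the threshold. The gene closest to araR of Emericella nidulans (ATCC64974_54630) was at 51.7 ± 2.88 CPM in MA234.1 and 48.0 ± 1.44 in ΔaslA (edgeR log2 fold change -0.11 with SE 0.177, adjusted p = 0.633).

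**Figure D5:**
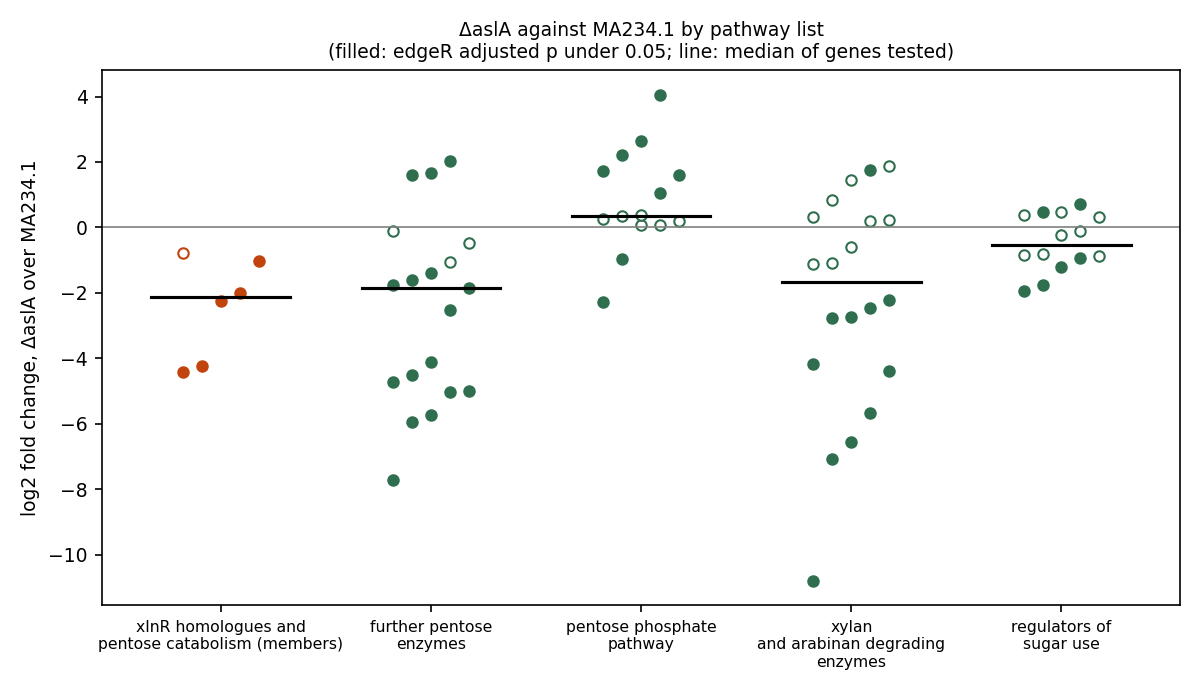
log2 fold change of ΔaslA over MA234.1 for each tested gene of the set and of 4 pathway lists; filled points have an edgeR adjusted p under 0.05 and bars mark list medians. The medians are -2.13 for the set, -1.85 for further pentose enzymes, 0.36 for the pentose phosphate pathway, -1.66 for polysaccharide degrading enzymes and -0.53 for sugar regulators.

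In ΔaslB against MA234.1 edgeR called none of the genes in these 4 lists, and 0 of all 9568 genes tested. Genes tested were 19, 14, 20 and 14 in the pentose, pentose phosphate, polysaccharide and regulator lists. Of these, 5, 6, 5 and 0 had an unadjusted edgeR p under 0.05, beside 2926 of all 9568 genes. DESeq2 called 3, 4, 2 and 0 of them, beside 1796 of all 9568 genes. It gave no adjusted p for 7, 0, 6 and 0 genes of the lists. Without ΔaslB replicate 2, edgeR called 13 lower and 3 higher of the pentose list, 2 lower and 7 higher of the pentose phosphate list, 13 lower and 2 higher of the polysaccharide list, and 4 lower and 0 higher of the regulators, beside 26.2% lower and 26.4% higher over all genes.

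The genes of the set lie apart from each other: they are on contigs 3, 4, 6, 7 and 16, none overlaps another annotated gene, and no other gene has the same SwissProt entry. Of their 12 immediate neighbours, 10 were tested in ΔaslA against MA234.1, 4 rose and 2 fell, near the 48.5% of all genes called in either direction. The neighbour 542 bp before xyl1 on the same strand is closest to abaA, a regulator of conidiation in Emericella nidulans, and it rose from 1.43 ± 0.595 to 19.0 ± 2.44 CPM (edgeR log2 fold change 3.71 with SE 0.575, adjusted p = 0.00841). Its ΔaslB levels were 9.88, 2.85 and 12.3 CPM. The gene before ladA on the contig, 1303 bp away on the same strand, is agdC, a probable alpha/beta-glucosidase gene, which fell from 2124 ± 28.7 to 62.7 ± 1.29 CPM (edgeR log2 fold change -5.08 with SE 0.925, adjusted p = 0.00841). The gene after xkiA, matched to the tRNA exportin los1, rose by 2.40 on the log2 scale (edgeR adjusted p = 0.00941), opposite to xkiA itself. Neither neighbour of xdhA was called, with log2 fold changes of -0.09 and -0.54 (edgeR adjusted p = 0.717 and 0.0839).

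Across the 9 libraries the genes of the set followed each other in log2 CPM, with Pearson r from 0.846 for xyl1 and xkiA to 0.977 for ATCC64974_28320 and ladA. These values come from the same 9 libraries for every gene, and no test was made. Across all genes, MA234.1 and ΔaslA libraries form separate clusters, with ΔaslB replicate 2 beside MA234.1 and replicate 3 beside ΔaslA. For the 6 genes ΔaslB replicate 1 lay between the strains, at 0.304 to 0.820 on the scale from MA234.1 to ΔaslA. The number of tested genes with r of at least 0.9 ranged from 471 for xyl1 (4.92% of those tested) to 1683 for xkiA (17.6%). For all 6 genes, the most similar genes named below were sought only among tested genes with a SwissProt match. Such a match was given for 8074 of the 11187 genes. Among these, the gene most like ATCC64974_28320 was katG, a catalase-peroxidase gene, at r = 0.999. It was followed by genes matched to the glucose transporter rco-3 (0.998) and the peptide transporter ptr2 (0.997). For ATCC64974_91960 the 3 most similar genes matched an acyl-coenzyme A synthetase, the metal resistance protein YCF1 and the lactose permease LAC12, each at r = 0.995.

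Closest to xyl1 were genes matched to the L-saccharopine oxidase fap2 (r = 0.969), the cytochrome P450 CYP52A12 (0.968) and the uncharacterized membrane protein YCR023C (0.963). For xdhA they matched the peroxisomal protein LPX1 (0.998), the dipeptidyl-peptidase dpp5 (0.997) and the threonine aldolase GLY1 (0.997), and for xkiA GSTU2, a glutathione S-transferase (0.998), the coumarate ligase 4cl1 (0.995) and the exo-inulinase inuE (0.995). The genes nearest to ladA matched a Baeyer-Villiger monooxygenase (0.998), the quinate permease qutD (0.997) and SEC, a probable N-acetylglucosaminyltransferase (0.996).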

How the data were processed

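The authors deposited a table of unnormalized counts, 11187 genes by 9 libraries, and an annotated table with FPKM per strain, log2 ratios and q-values per pair of strains, with replicates combined. The tools listed in the submitters' processing notes are HISAT2 2.2.1, featureCounts, Subread and Cuffdiff; what each did, whether strand was used, and the genome build are not stated there. Libraries were stranded poly(A), read as pairs of 50 bp, per the labels. Deposited log2 ratios, which are of FPKM + 1, were turned to the first strain over the second.

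Differences in counts were tested in edgeR 4.0.16 by quasi-likelihood (R 4.3.3; TMM scaling, robust fit, filter by group with a minimum count of 10), in 1 fit of all 9 libraries by strain. A gene was called at an adjusted p (Benjamini-Hochberg, over the 9568 genes kept) under 0.05. CPM are edgeR values after TMM scaling, and log2 CPM used a prior count of 2. The test was tried on simulated counts with known changes, each time in 6 libraries drawn with the spread of 1 strain. With the spread of MA234.1 libraries the changes were recovered, but with the spread of ΔaslB libraries most of the smaller changes were not called. The main fit differs, as its spread is estimated over all 9 libraries, so recovery in that fit was not tested. In the replicate chi-square comparison, counts differed by 2.36 to 643 per degree of freedom, so no pair agreed within sampling noise. As alternatives, DESeq2 1.42.0, voom of limma 3.58.1, RLE factors, total counts alone, a stricter filter, no filter, a replicate block, the 6 libraries compared, and each library left out in turn were run.

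Members and lists were chosen with earlier results of these data known. Pathway lists were taken from words in the SwissProt text. The names creA to creD and GAL4 were matched as whole words. All members are named. From each pathway list, up to 4 genes by mean CPM and the best known (araR, creA, xlnD, abfB) are named, except abfB, which is not repeated here. Genes named outside this rule are those marked as chosen after their values were seen, and ATCC64974_54630, added as a further match to araR. For likeness, the 3 genes of highest r among tested genes with a SwissProt match are named. A planned search for motifs in promoters was not run. Figures were drawn with matplotlib 3.10.9.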

Additional observations from a re-analysis of the deposited data

How the results depend on the processing

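Across 17 alternatives in each of 3 comparisons, 286 of 306 log2 fold changes of the 6 genes kept their direction and their side of the threshold, 17 passed the threshold in addition, and 3 changed sign. The sign changes were those of xyl1 in ΔaslB against MA234.1: 0.0070 with total counts alone, and -0.50 to 0.074 over the fits that leave out a library, against -0.10; the cause was not tested. In ΔaslB against MA234.1, 644 genes were called with total counts alone and 1796 by DESeq2, which called 2 of the 6; in ΔaslA against ΔaslB, DESeq2 called 553 genes and 3 of the 6. Leaving out each library in turn gave 3008 to 5893 genes in ΔaslA against MA234.1, 0 to 5093 in ΔaslB against MA234.1 and 0 to 1245 in ΔaslA against ΔaslB, and called 5 to 6, 0 to 5 and 0 to 3 of the 6 genes. The libraries that moved a count by more than 1.5 times were MA234.1 replicates 2 and 3 (3054 and 3008 genes) and, for ΔaslB comparisons, ΔaslB replicates 2 and 3, whose values stand in the report. Same-numbered libraries did not deviate together over all genes (r from -0.0582 to 0.0383). This check cannot exclude that the numbers pair libraries, since an effect on few genes would not be seen in it. With a replicate block 4148 genes were called in ΔaslA against MA234.1, 5 of the 6 among them, and 0 in the other comparisons. The 10 to 84 counts behind ladA and ATCC64974_91960 in ΔaslA limit the precision of their folds.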
